A study of Mus musculus with 5 samples.

Results

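Runx3 binding was examined at 36 genes of the lysosome: the cathepsins and other lysosomal proteases, acid hydrolases, lysosomal membrane proteins, the cholesterol exporters, the regulators Mcoln1 and Tfeb, and subunits of the vacuolar proton pump. The genes were listed by name and function, out of 22208 protein-coding genes, by a rule that uses no binding value, but with earlier results of these data known, so their share with a peak is not independent of those results. Each was given a regulatory domain that ran from 5 kb upstream to 1 kb downstream of its outermost transcription start site (TSS) and was extended in both directions up to 50 kb from the TSS or to the basal domain of the next gene. A peak was counted for a gene if its summit lay in this domain. By this rule 48 of the 13014 peaks of the series lay in the domain of 1 or more of the 36 genes, forming 49 gene-peak pairs because Ctsk and Ctss shared 1 peak.

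The study mapped the RUNX-family transcription factor Runx3 by ChIP-seq in D1, a dendritic cell line of splenic origin from mouse. For 3 libraries chromatin was precipitated with a polyclonal rabbit anti-Runx3 antibody (Runx3 IP), and for 2 control libraries with non-immune rabbit serum (NIS IP). All came from the same single line, fixed in 1% formaldehyde, and no genotype, treatment or time is given in the labels. The peak list compares 8689867 Runx3 tags with 4946605 NIS tags, counted without duplicates, but the sources used here do not say how the libraries were combined. There is thus no spread between replicates. Intervals cover counting error only, members and all genes are set side by side with no test, and neither expression nor the identity of the D1 cells can be checked from binding.

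Lysosomes degrade what a cell takes up or recycles, at an acid pH held by the vacuolar ATPase (V-ATPase), a pump whose V1 part hydrolyses ATP outside the lysosome and whose V0 part carries protons across its membrane. In dendritic cells the same proteases cut antigens and the invariant chain so that peptides can be loaded on MHC class II molecules. Many lysosomal genes are controlled by Tfeb and its relatives, which bind an E-box, CACGTG, in their promoters. RUNX proteins bind TGTGGT or TGCGGT, called the RUNX motif here, which reads ACCACA or ACCGCA on the other strand.

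Sequence under 6 of the 48 member peaks is shown first. Those of Atp6v1c1, Tfeb, Atp6v0a1 and Ctss are the 4 of highest fold enrichment, that of Atp6v0d1 holds a RUNX motif beside an E-box, and that of Lamp1 is an example without a RUNX motif. The Atp6v0a1 peak of 11.6 in a 5′ UTR and the Tpp1 peak of 11.4, which also has no RUNX motif, exceed the last pair in fold and are not shown. It is the plus strand of build mm9 with RUNX motifs in capitals, 75 bp to each side of the summit, without bases of untranslated regions (UTRs). For the Tfeb summit, which lies in a 5′ UTR, only 30 bases around the motif are shown.
Atp6v1c1 intron, chr15:38601702-38601852: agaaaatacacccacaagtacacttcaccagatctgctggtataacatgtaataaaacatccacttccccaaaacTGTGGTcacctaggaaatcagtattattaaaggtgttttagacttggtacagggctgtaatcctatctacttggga
Tfeb internal start site, chr17:47891320-47891349: ctcccagggggtTGTGGTtgtgcaacttcc
Atp6v0a1 upstream, chr11:100869492-100869642: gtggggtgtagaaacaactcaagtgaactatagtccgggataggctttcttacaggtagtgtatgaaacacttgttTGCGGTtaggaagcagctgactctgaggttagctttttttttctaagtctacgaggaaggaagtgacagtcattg
Ctss intron, chr3:95333887-95334037: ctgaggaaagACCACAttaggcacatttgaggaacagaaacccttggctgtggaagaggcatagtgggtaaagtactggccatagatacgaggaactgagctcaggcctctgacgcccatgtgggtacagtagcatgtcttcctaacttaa
Lamp1 upstream, chr8:13155480-13155630: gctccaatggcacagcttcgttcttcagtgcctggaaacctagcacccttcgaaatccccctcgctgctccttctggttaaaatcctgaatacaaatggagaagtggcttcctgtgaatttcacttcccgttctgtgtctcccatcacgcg
Atp6v0d1 promoter, chr8:108089948-108090029: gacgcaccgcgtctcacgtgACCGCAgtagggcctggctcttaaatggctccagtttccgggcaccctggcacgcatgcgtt

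The motif lay within 4 bp of the summit in the Atp6v1c1 and Atp6v0a1 peaks, its centre 2.5 and 3.5 bp away. In the Ctss intron it lay 62.5 bp from the summit. The Lamp1 peak had no RUNX motif within 100 bp of its summit, as was the case for 17 of the 48 member peaks. In the promoter of Atp6v0d1, a gene on the minus strand, the E-box cacgtg ran directly into the RUNX motif ACCGCA, with 0 bases between them. Both motifs also stood at the Atp6v0c peak 2.78 kb upstream, with 43 bases between them, and at the Atp6v1c1 promoter peak, with 164. Both stood within 100 bp of the summit in 333 of all 13014 peaks (2.56%), and in 10 of these no base lay between them.

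At least 1 peak was assigned to 23 of the 36 genes (63.9%), against 33.8% of all protein-coding genes (7516 of 22208), whose expression in D1 cells was not analysed here. Of the 23, 7 had 1 peak, 8 had 2, 6 had 3, and Psap and Atp6v0a1 had 4 each. The median domain was 56.4 kb among members and 62.8 kb over all genes, and member domains held 22.8 gene-peak pairs per Mb against 9.24. A peak within 1 kb of one of the gene's own TSSs was found for 14 members (38.9%) against 15.5% of all genes. A peak that held a RUNX motif was found for 19 (52.8%) against 25.1%, and 3 or more peaks for 8 (22.2%) against 6.13%. For peaks with a fold enrichment of 10 or more the count was 7 (19.4%) against 13.1%, the narrowest of these gaps on a percentage scale. No test was made of these shares, and neighbouring genes and peaks are not independent.

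**Figure D1:**
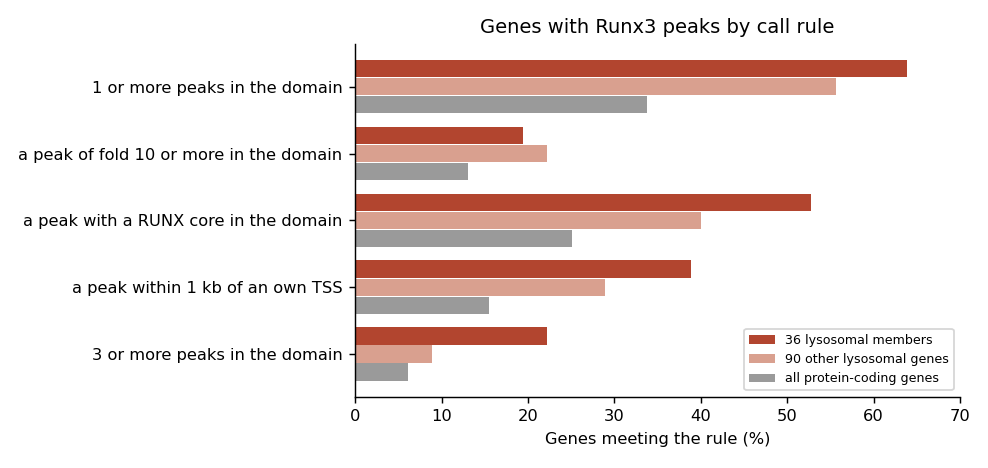
Percentage of genes (x axis) that met each of 5 rules for Runx3 peaks (rows), for the 36 lysosomal members, 90 other lysosomal genes and all 22208 protein-coding genes. The member bars run from 63.9% for any peak to 19.4% for a peak of fold 10 or more, and each is longer than that of all genes (33.8% and 13.1% for these rules).

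The peaks of the members were not taller than others by median. Fold enrichment, the authors' ratio of Runx3 to local NIS signal at the summit, had a median of 7.30 over the 48 member peaks (95% interval of the median 6.67 to 8.12) and of 8.12 over all peaks, and ran from 4.59 to 25.6. A fold of 10 or more was reached by 8 of the 48 (16.7%, 95% Wilson interval 8.70 to 29.6) and by 28.7% of all peaks. The median member summit was covered by 18 Runx3 fragments, against 19 over all peaks. The list holds no summit with fewer than 8 fragments, and binding too weak to pass the q cutoff at this depth is not in it. This is not 1 limit for all places, as q also depends on the local NIS background. A Psap peak with 17 fragments over a background of 1.00 had a −log10 q of 3.75. A Tpp1 peak with 9 fragments over 0.333 had 2.78.

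**Figure D2:**
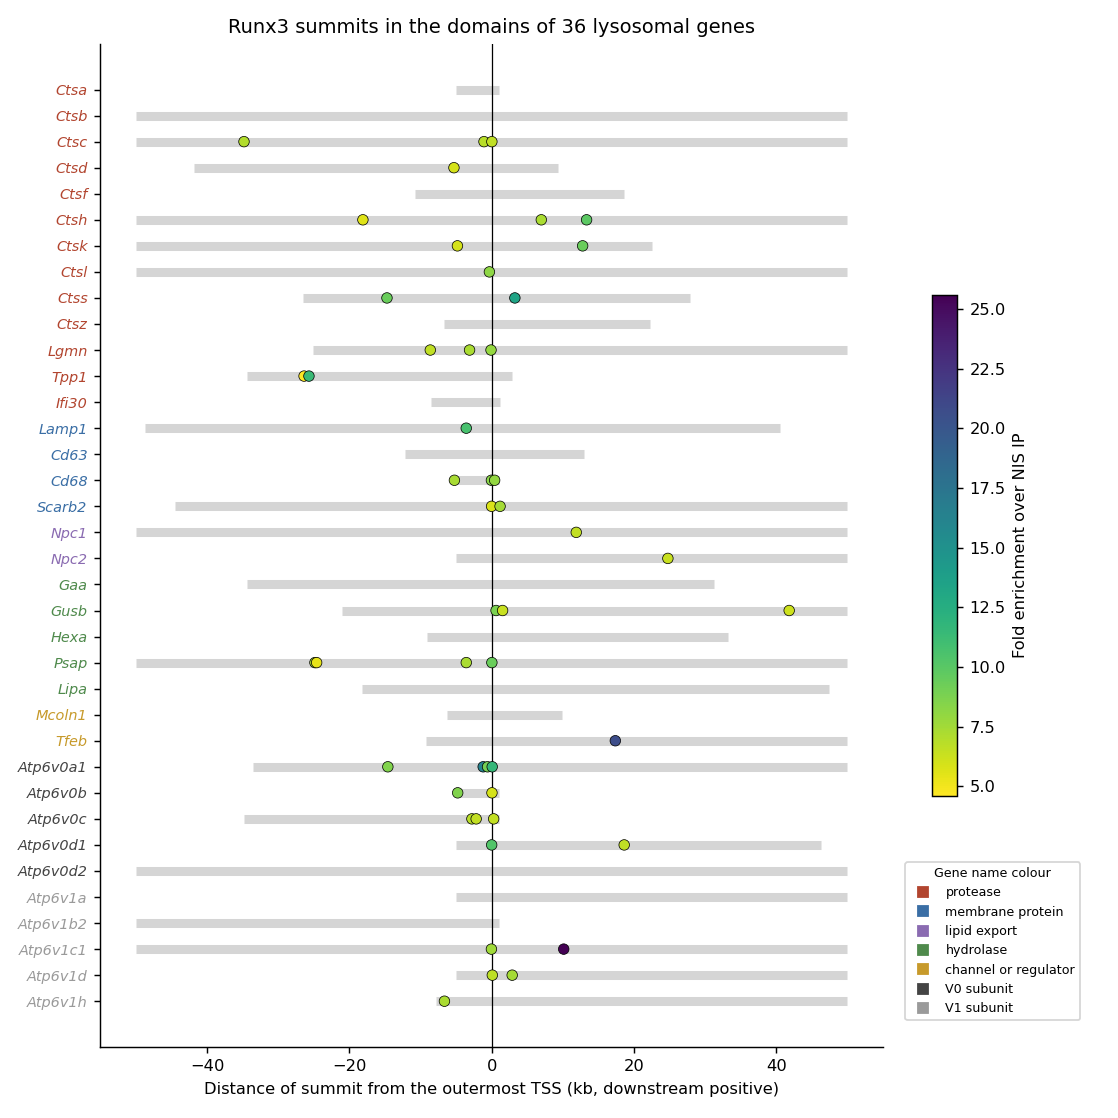
Each row is 1 of the 36 genes, grouped by role (colour of the name), the grey bar is its domain and each point a Runx3 summit, placed by its distance in kb from the outermost TSS (downstream positive) and coloured by fold enrichment over NIS IP. Points gather at the TSSs of Atp6v0a1 and Cd68, the darkest points are those of Atp6v1c1 (25.6) and Tfeb (20.7), and 13 rows have no point.

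The proton pump carried the member peak of highest fold. Of its 10 subunit genes 7 had a peak, with 16 gene-peak pairs in all, and 6 of the 7 had one within 1 kb of an own TSS. For comparison with this group and those below, 63.9% of all members and 33.8% of all genes had a peak. At an own TSS these shares were 38.9% and 15.5%. Differences between groups were not tested. Atp6v1c1, the gene of subunit C of the V1 part, which helps to join V1 to V0, had its peak of 25.6 in its own intron, 10.1 kb downstream of the TSS (chromosome 15, 38601664 to 38601873). It was covered by 64 fragments (95% Poisson interval 49.3 to 81.7) over an NIS background of 0.464 in the same scaled units. A lower peak of 7.62 with 18 fragments lay at its promoter, 42 bp upstream of the TSS.

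Atp6v0a1, which encodes the a1 form of the subunit that guides protons through V0, had a row of peaks at its start. The tallest, with a fold of 16.3 and 36 fragments (25.2 to 49.8), lay 1.20 kb upstream of the TSS (chromosome 11, 100869468 to 100869706). It was followed by one of 8.99 with 19 fragments 585 bp upstream and one of 11.6 with 25 fragments in the 5′ UTR, 68 bp downstream. A further peak of 8.55 with 18 fragments stood 14.6 kb upstream, in a region also assigned to Ptrf. All 4 held a RUNX motif.

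Of the other V0 genes 3 had a peak at an own TSS. Atp6v0d1, the gene of the widely expressed d subunit, had a peak of 10.3 with 22 fragments (13.8 to 33.3) centred 7 bp upstream of the TSS (chromosome 8, 108089854 to 108090038), and one of 6.61 in its intron. Atp6v0c, whose product is the main proteolipid of the proton-carrying ring, had 3 peaks of 6.48 to 6.85, the closest 32 bp from an own TSS. Atp6v0b, the gene of another ring subunit, had a peak of 5.91 with 19 fragments in its 5′ UTR and one of 8.55 4.78 kb upstream, which lay nearer to the TSS of Dph2. Atp6v0d2, the form of the d subunit best known from osteoclasts, had none in a domain of 100 kb, and its nearest summit lay 110 kb away.

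In the V1 part, Atp6v1d, a subunit of the rotor stalk, had 1 peak at its start (6.67, 14 fragments) and 1 in its intron (7.45, 16 fragments). Both also lay in the domain of Eif2s1. Atp6v1h, a regulatory subunit gene, had 1 of 7.25, 6.64 kb upstream and nearer to the TSS of Rgs20. Atp6v1a and Atp6v1b2, which encode the catalytic and nucleotide-binding subunits of the V1 head, had none. The nearest summits lay 250 and 79 kb from their TSSs.

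Tfeb, the master activator of lysosomal genes (Tcfeb in the annotation used), had 1 peak, the second highest in fold among the members. It reached 20.7 with 46 fragments (33.7 to 61.4) over a background at the genome average, 0.315 (chromosome 17, 47891261 to 47891459). The summit lay 17.4 kb downstream of the outermost TSS but 77 bp from another annotated TSS of Tfeb, in a 5′ UTR, and no other gene's domain held it. Mcoln1, which encodes the lysosomal calcium channel TRPML1, had no peak in its 16.2 kb domain, and its nearest summit lay 147 kb away.

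Of the 13 genes of proteases and their helper Ifi30, 8 had a peak and 3 had one at an own TSS. Ctss, the cathepsin that trims the invariant chain in dendritic cells, had the tallest, with a fold of 13.3 and 30 fragments (20.2 to 42.8), in its own intron 3.25 kb downstream of the TSS (chromosome 3, 95333831 to 95334079). The domains of Ctss and the neighbouring Ctsk, a collagen-degrading cathepsin, shared an intergenic peak of 9.42 with 20 fragments. It lay 12.8 kb downstream of the TSS of Ctsk and 14.7 kb upstream of that of Ctss, with its RUNX motif 3.5 bp from the summit. The other Ctsk peak, of 5.96, lay in a coding exon of Arnt.

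Tpp1, a tripeptidyl peptidase gene, had a peak of 11.4 with 25 fragments, but 25.7 kb upstream, in an intron of Dchs1 and nearer to the TSS of that gene (chromosome 7, 112926344 to 112926508). A second Tpp1 peak there, of 4.59 with 9 fragments, was the weakest of the members. Ctsh, an aminopeptidase gene, had 3 peaks of 5.62 to 9.85, the highest in its own intron 13.3 kb downstream.

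Peaks at protease promoters stayed under a fold of 10. Lgmn, the asparaginyl endopeptidase gene, had 3 peaks, the highest of them with 26 fragments (17.0 to 38.1) 98 bp upstream of its TSS but a fold of 7.90, as the NIS background there was 1.00. Ctsl, a cysteine protease that cuts the invariant chain in thymic epithelium, had 1 peak of 8.12 with 17 fragments 326 bp upstream. Ctsc, whose product activates serine proteases of leukocyte granules, also had 3, with 14 fragments and a fold of 6.61 at 21 bp downstream of its TSS. Ctsd, the aspartic protease gene, had a single peak of 5.96 with 12 fragments, 5.31 kb upstream.

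The genes of the carboxypeptidases Ctsa and Ctsz, the cysteine proteases Ctsb and Ctsf, and the thiol reductase Ifi30, which unfolds antigens by opening disulfide bonds, had no peak. For Ctsa and Ifi30 the searched domain was short, 6.0 and 9.79 kb, because other genes lie close by, and the nearest summits were 24.5 and 9.49 kb away. For Ctsb it was the full 100 kb, with the nearest summit 55.6 kb from the TSS. Over all 13 members without a peak the median domain was 42.4 kb, against 71.1 kb for the 23 with one.

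Of 4 membrane protein genes 3 had a peak. Lamp1, which encodes a major glycoprotein of the lysosomal membrane, had 1 of 10.7 with 23 fragments (14.6 to 34.5), 3.58 kb upstream (chromosome 8, 13155477 to 13155660). Cd68, the macrosialin gene used as a marker of macrophages, had 3 in a domain of 6.27 kb. These were a promoter peak of 8.29 with 18 fragments 40 bp upstream of the TSS, one of 8.01 with 19 fragments in its coding exon, and one in an intron of Eif4a1 with 37 fragments but a fold of 7.35 over a background of 2.00.

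Scarb2, whose product carries glucocerebrosidase to the lysosome, had a peak of 5.77 with 12 fragments 19 bp upstream of its TSS and one of 7.45 in its intron, both without a RUNX motif. Cd63, a tetraspanin gene, had none, with the nearest summit 245 kb away.

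Both cholesterol exporters had 1 peak of low fold far from the TSS. That of Npc1, the transporter of the lysosomal membrane, had a fold of 6.48 in its own intron 11.9 kb downstream. It held 21 fragments over an NIS background of 0.999. That of Npc2, the soluble carrier that hands cholesterol to Npc1, had a fold of 6.39, 24.8 kb downstream and between genes. It held 13 fragments over a background of 0.315.

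Among the hydrolases and their cofactors Psap and Gusb had peaks. Psap, the precursor of the saposins that assist sphingolipid breakdown, had 4, the highest in its 5′ UTR 22 bp downstream of the TSS (9.42, 20 fragments, chromosome 10, 59740329 to 59740490). None of the 4 held a RUNX motif. Gusb, the β-glucuronidase gene, had 3 that all held one: 8.78 with 21 fragments and 6.34 with 16 in its own introns, and 6.22 with 31 in an intron of Vkorc1l1, over an NIS background of 2.00. Gusb lies beyond 110 Mb on chromosome 5, where the list holds 16.8 peaks per Mb against 5.02 over the other autosomal sequence, and the part of this density in the Gusb peaks was not tested. Gaa, Hexa and Lipa, which encode acid α-glucosidase, the α subunit of β-hexosaminidase and lysosomal acid lipase, had no peak.

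**Figure D3:**
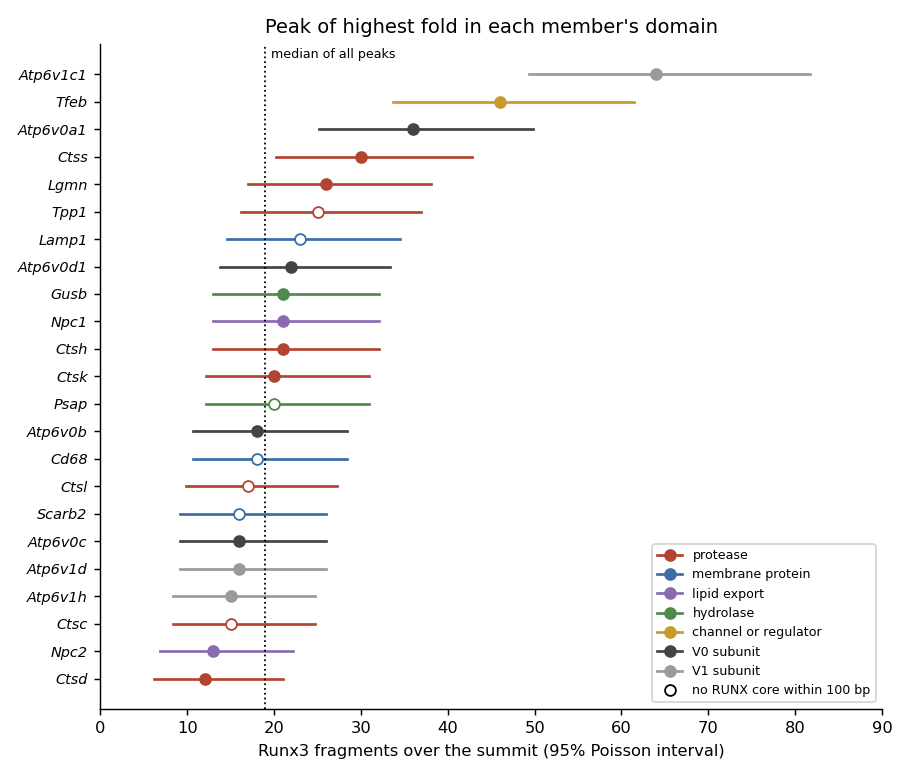
For each of the 23 members with a peak (rows), the Runx3 fragments over the summit of its highest-fold peak, with 95% Poisson intervals, coloured by role. Open circles mark peaks without a RUNX motif within 100 bp, and the dotted line is the median of all peaks, 19 fragments. Of the peaks drawn, those of Atp6v1c1 (64 fragments), Tfeb (46), Atp6v0a1 (36) and Ctss (30) have intervals wholly above that line. Peaks of lower fold are not drawn. Among these, the Cd68 peak in Eif4a1 (37 fragments, 26.1 to 51.0) and the Gusb peak in Vkorc1l1 (31, 21.1 to 44.0) also exceed the line.

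Ranked by fragments at the highest-fold peak, neighbours overlapped throughout: the interval of Atp6v1c1 (49.3 to 81.7) overlapped that of Tfeb (33.7 to 61.4) and, at its edge, that of Atp6v0a1 (25.2 to 49.8), but not that of Ctss (20.2 to 42.8). From Lgmn at 26 fragments down to Ctsd at 12 the intervals all included the median of 19 over all peaks. In this range the order of members is not resolved by the depth of the list.

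Of the 48 member peaks, 18 (37.5%, 95% Wilson interval 25.2 to 51.6) had a summit within 1 kb of a TSS of any gene, against 35.5% of the 10096 peaks in the domain of any gene and 27.8% of all peaks. By place, 25 summits were intergenic, 14 in introns, 7 in 5′ UTRs and 2 in coding exons. For 42 the nearest outermost TSS was that of a member, and for 6 that of another gene. The domain of another gene also held 21 of the 48, so that these peaks cannot be assigned to the member alone. Not every such gene is named above. For example, the Ctss peak of 13.3 also lay in the domain of Hormad1, and the Atp6v0b 5′ UTR peak in that of B4galt2. The Cd68 promoter and exon peaks also lay in that of Mpdu1.

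The RUNX motif lay within 100 bp of 31 of the 48 summits (64.6%, 95% Wilson interval 50.4 to 76.6), as against 64.2% of all peaks. In windows of the same 201 bp centred 1 kb away it was found beside 11 (22.9%) on the side of lower coordinates and 6 (12.5%) on the other. Set against the lower window, 26 peaks held the motif only at the summit and 6 only in the window. Set against the higher window, these counts were 29 and 4. Where present, the nearest motif was centred a median of 13.5 bp from the summit, against 14.5 bp over all peaks.

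Near start sites the motif was found at 11 of 18 member summits (61.1%, interval 38.6 to 79.7), against 49.3% of all peaks near a TSS. Farther away it was found at 20 of 30 (66.7%, 48.8 to 80.8), against 69.9%. The median fold of member peaks was 7.45 with the motif and 7.25 without it. Over all peaks these medians were 8.55 and 7.33.

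Other motifs were rarer, and each was searched on both strands. The AP-1 site, TGAGTCA or TGACTCA, stood at 7 of the 48 summits (14.6%, interval 7.25 to 27.2, against 9.56% of all peaks). Among them were summits of Ctsd, Psap and Scarb2 and that of the peak shared by Ctsk and Ctss. GAGGAAGT, a site of PU.1 and other ETS factors, stood at 4 (8.33%, interval 3.29 to 19.6, against 10.9%), including Tfeb and Gusb. TTGNNCAA, a pattern bound by C/EBP factors, stood at 5 (10.4%, interval 4.53 to 22.2, against 4.10%). Over all peaks this pattern was no commoner at summits than in the windows 1 kb away (4.28% and 4.48%). The E-box CACGTG stood at 4 (8.33%, interval 3.29 to 19.6, against 4.23%), those at the promoters of Atp6v0b, Atp6v0d1 and Atp6v1c1 and upstream of Atp6v0c. All 4 belong to the proton pump.

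**Figure D4:**
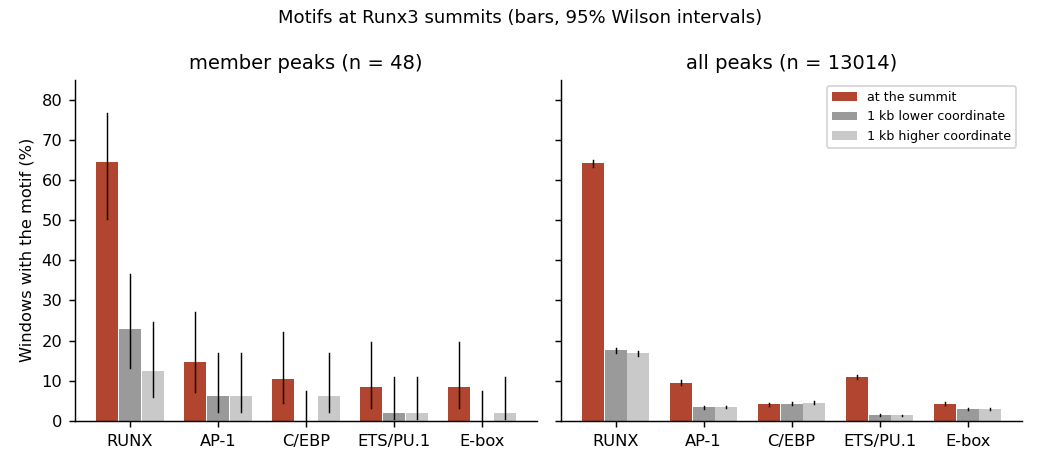
Share of 201 bp windows that held each motif (y axis, with 95% Wilson intervals) at the summit and 1 kb to each side, for the 48 member peaks (left) and all 13014 peaks (right). The RUNX motif stands at 64.6% of member summits and 64.2% of all summits, and the intervals of the other motifs among member peaks are wide.

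Promoters of the members were also compared with all others by sequence, from RefSeq on build GRCm38.p6, taking 250 bases before to 50 after each start. These were matched for 29 members, and not for Ctsb, Ctsh, Npc1, Atp6v0d2, Atp6v1b2, Atp6v1c1 and Atp6v1h. The E-box CACGTG was found in 12 of the 29 (41.4%), against 8.09% of 27025 genes, and the RUNX motif in 8 (27.6%) against 25%. These 27025 RefSeq genes are a larger set than the 22208 protein-coding genes used elsewhere, and several starts were searched for some members. The members were listed by function, and many lysosomal genes are E-box targets of Tfeb, so their E-box share is not independent of the list. Of the 12 members with an E-box 6 had a Runx3 peak in their domain and 4 at an own TSS (Atp6v0b, Atp6v0d1, Ctsl and Lgmn). Of the 17 without one 13 had a peak in their domain and 9 at an own TSS. No such split over all genes is given here, the counts are small, and the difference was not tested. The unmatched members are in neither count, among them Atp6v1c1, whose promoter peak held an E-box.

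The other genes of the pathway were 90 genes of hydrolases and related proteins, membrane and sorting proteins, proteases, pump subunits and regulators, listed by function. Of these, 50 had a peak (55.6%, beside 33.8% of all genes). They were 17 of 31 genes of hydrolases and related proteins, the latter including Grn, Gm2a and Sumf1, and 10 of 16 membrane proteins. Further V0 genes gave 5 of 7, further V1 genes 4 of 8, and channels and regulators 5 of 9. Genes of mTORC1 signalling at the lysosome gave 4 of 7, sorting genes 3 of 6, and proteases and inhibitors 2 of 6. The highest folds were those of Grn, the progranulin gene (28.4, 66 fragments, in its own intron 2.13 kb downstream of the TSS), and of Slc15a3, a lysosomal peptide transporter gene (22.6, 52 fragments, 2.16 kb downstream). Rptor, an mTORC1 subunit gene, followed with 19.9, between genes and 13.5 kb upstream of the TSS. Next came the nucleoside transporter gene Slc29a3 with 19.6, between genes and 46.4 kb downstream. Galc, the galactocerebrosidase gene, had 18.9 in its own intron, 3.90 kb downstream. The highest peaks of Grn and Slc15a3 held no RUNX motif.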

How the data were processed

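Groups were taken from the sample titles. The labels and methods speak of 2 replicate experiments, the design text of 3 Runx3 libraries. Tools and build are those of the submitters' processing notes: CASAVA 1.8 for base calls, Bowtie 1 for unique alignment to mm9, and MACS2 2.0.10 for peaks (fragment length 119 bp, q cutoff 0.05, 1 tag kept per position, larger library scaled to the smaller).

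Per the file headers the authors started from 12078978 Runx3 and 7110481 NIS tags and removed 28.1% and 30.4% as duplicates. The deposited pileup is a signal, the Runx3 fragments over a summit scaled to the NIS depth; as all pileups were whole multiples of 0.569 within 0.02 of a fragment, fragments were recovered. The deposited fold enrichment is the ratio (pileup + 1) / (NIS background + 1), from which the background was recovered. The −log10 q values were deposited under an unreadable header and were identified by position and range; the p-values were not used. Removing duplicates limits tall summits, and a higher background lowers fold at the same pileup.

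Sequence and genes came from NCBIM37, the same build, with GENCODE vM1 (22350 protein-coding models, 22208 names, the longest model kept); 3 listed names, Tfeb among them, were matched by RefSeq synonym. Domains were built in the manner of GREAT. Members were all named, with values for peaks of fold 10 or more or within 1 kb of an own TSS; of the other lysosomal genes the 5 of highest fold were named. Members and lists were chosen with earlier results of these data known. Scripts were tested on simulated data. Scripts ran on pandas 2.3.3 and SciPy 1.17.1 under Python 3.11.15, with NumPy 2.4.6; figures were drawn in matplotlib 3.10.9. Alternatives were stricter peak thresholds, other domains and gene assignments, and other motif windows.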

Additional observations from a re-analysis of the deposited data

How the results depend on the processing

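No paired analysis was possible because the deposited list holds no values per library, and for the same reason no library could be left out. Of 36 members, 23 had a peak; 22 did at a −log10 q of 5 or more (not Ctsd), 22 without distal chromosome 5 (not Gusb), 21 with each peak given only to the nearest outermost TSS (not Atp6v1h and Tpp1), 24 with domains up to 1 Mb (Atp6v1b2 added) and 19 with RUNX-motif peaks alone (not Ctsl, Lamp1, Psap and Scarb2). At a fold of 10 or more, 7 members, 8 peaks and 20 other lysosomal genes were left, and the median fold was 12.5, by construction. With basal domains alone, 15 members (not Atp6v1h, Ctsd, Ctsh, Ctss, Npc1, Npc2, Tfeb and Tpp1) and 26 other lysosomal genes had a peak, 24 member peaks were counted, and 66.7% of these peaks lay near a start site, as such domains hold little else. With RUNX-motif peaks alone 31 peaks were counted. Searching TGTGGT alone, the motif share was 50%. With basal domains 41.7% of members and 17.4% of all genes had a peak, and with domains up to 1 Mb 66.7% and 43.1%. The stricter q left 61.1% of members and 29.2% of all genes with a peak. Leaving out distal chromosome 5 gave 61.1% and 32.2%, and assignment to the nearest outermost TSS alone gave 58.3% and 27.7%. Other alternatives moved no count by over 1.5 times and no share or median out of its interval.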
